A study of Mus musculus with 24 samples.

Results

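Toll-like receptors are membrane proteins that recognise microbial molecules and products of damaged cells, and CD14 is a co-receptor that hands ligands to them. The genes described here are Tlr2, Tlr3, Tlr4, Tlr7, Cd14 and Myd88, taken by symbol from 4 tables of log2 CPM (reads of a gene as a share of its library, on a log2 scale). All 6 of them had a row in at least 1 table, among 14769 gene symbols in all. Each was listed in both tables of PI against CL, 1 for WT and 1 for KO, and in that of the genotypes in PI, while 4 (not Tlr2 and Cd14) had a row in that of the genotypes in CL. The rule lists the genes by name and holds no threshold on a measured value.

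The libraries were made from cortex after tMCAo in males 3 to 4 months old, a stroke model in which a filament blocks the middle cerebral artery, here for 1 h, followed by 1 day of reperfusion. WT and KO animals gave CL and PI libraries, 6 for each of the 4 groups. KO animals lack ciRS-7, a circular RNA also called Cdr1as, and the strain C57BL/6N-Cdr1asem1Nikr is given for every animal, WT included. All 4 groups had the surgery, so no library is from an unoperated brain. The labels do not spell out CL and PI, and they name the same 6 animals of a genotype for both. The question set by the design is how expression differs between WT and KO after stroke, and the 2 marks of the samples add the comparison of PI with CL.

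Toll-like receptors act at the cell surface (TLR2 and TLR4) or in endosomes (TLR3 and TLR7). TLR2 recognises lipoproteins, TLR4 with CD14 and MD-2 recognises lipopolysaccharide, TLR3 binds double-stranded RNA and TLR7 single-stranded RNA. Apart from TLR3, which signals through TRIF, these receptors recruit the adaptor MyD88, which passes the signal through IRAK kinases and TRAF6 to NF-kappaB and so to cytokine genes. In the brain, microglia carry most of these receptors, and astrocytes are also known for TLR3.

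Promoters of the members are shown because NF-kappaB is the usual end of the pathway and Tlr2 had the largest change among the receptors of the set. The RefSeq promoter table (GRCm38.p6) matched 3 of the 6 members, Tlr2, Tlr3 and Myd88; there was no entry for Tlr4, Tlr7 or Cd14. Each sequence holds the 250 bases before the RefSeq transcription start, read 5′ to 3′ on the gene's strand. The GENCODE genes given below start farther upstream, so the windows lie inside them (Tlr3, Myd88) or partly so (Tlr2). Distances before the start therefore hold for the RefSeq start only. Capitals mark a match to the kappaB motif (Tlr2, Tlr3) or to the doubled interferon-response motif GAAANNGAAA (Myd88).
Tlr2, chr3:83841609-83841858, minus strand: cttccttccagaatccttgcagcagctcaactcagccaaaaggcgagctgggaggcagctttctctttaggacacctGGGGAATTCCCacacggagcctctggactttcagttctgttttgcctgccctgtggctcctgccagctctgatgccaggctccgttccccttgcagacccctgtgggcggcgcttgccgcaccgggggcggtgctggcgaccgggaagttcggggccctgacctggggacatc
Tlr3, chr8:45410381-45410630, minus strand: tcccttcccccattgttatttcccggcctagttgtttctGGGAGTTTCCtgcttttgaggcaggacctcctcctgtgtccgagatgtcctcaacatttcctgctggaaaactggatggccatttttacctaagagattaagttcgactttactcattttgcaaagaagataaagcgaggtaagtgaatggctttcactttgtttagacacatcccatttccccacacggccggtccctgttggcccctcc
Myd88, chr9:119340019-119340268, minus strand: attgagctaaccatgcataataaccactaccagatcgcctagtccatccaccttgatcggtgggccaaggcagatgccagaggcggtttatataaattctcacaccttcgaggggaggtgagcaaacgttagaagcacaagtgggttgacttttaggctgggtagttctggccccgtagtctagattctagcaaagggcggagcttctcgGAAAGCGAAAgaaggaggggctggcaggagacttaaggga

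In the Tlr2 promoter, 2 overlapping kappaB matches began 173 and 172 bases before the start and together span GGGGAATTCCC. The Tlr3 promoter had the kappaB match GGGAGTTTCC at 211 bases before its start, and that of Myd88 had none. The kappaB motif, searched on both strands, was in 7.25% of 32851 promoters of this length. In the Myd88 promoter, GAAAGCGAAA began 40 bases before the start, a motif found in 2.98% of promoters. It overlaps TTCTCGGAA, at 46 bases before the start, a match to the GAS motif TTCNNNGAA of STAT factors (7.02% of promoters). The C/EBP letters TTNNGNAA matched once in Tlr2 and 2 times in Tlr3, and 36.9% of promoters held them. Neither GAGGAA, the core of the PU.1 motif (23.3% of promoters), nor TGANTCA, the AP-1 motif (6.75%), was in these 3 windows. A match describes letters only, since no binding was measured.

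On GRCm38 with GENCODE M21, all 6 genes are protein coding. Tlr2 (ENSMUSG00000027995.10) lies at chr3:83836272-83841767, Tlr4 (ENSMUSG00000039005.13) at chr4:66827584-66930284 and Tlr7 (ENSMUSG00000044583.13) at chrX:167304929-167330558, with no overlapping gene. Tlr3 (ENSMUSG00000031639.12) lies at chr8:45395665-45411080, where 7.32% of its exon bases are shared with the antisense gene Gm45542. Myd88 (ENSMUSG00000032508.8) lies at chr9:119335934-119341411, and 11.3% of its exon bases overlap exons of Acaa1a on the opposite strand. Whether reads were counted by strand is not given in the sources used here. Acaa1a itself differed between PI and CL by 0.10 in WT and 0.13 in KO on the log2 scale, and it was called in neither. Cd14 is ENSMUSG00000051439.7.

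Effective depth, read from the step between low values, was 3.75 to 10.5 M reads (megareads) per library with a median of 6.91 M, and 3 reads corresponded to 0.286 to 0.801 CPM. The library CL KO replicate 6 was the shallowest. In the deposited values, the lowest pair and the highest pair of each gene and group of 6 are tied at the group's quartiles. The second-lowest to second-highest values can be solved from these and are given below, and the lowest and the highest cannot. Each test compares the mean of these 4 recoverable values per group within 1 table, with limma's empirical Bayes step and Benjamini-Hochberg adjustment over all genes of the table, and a gene is called at an adjusted p under 0.05. The row Cdr1as, which checks the knockout, was at 2594 to 3004 CPM in PI WT and at most 0.169 CPM in PI KO over the recoverable values. In the table of CL KO with CL WT it was at 3386 to 3809 CPM against at most 0.148 CPM.

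In WT cortex, Tlr2, Cd14 and Myd88 were higher in PI than in CL, by 6.65-fold, 10.6-fold and 2.23-fold. In KO cortex the same 3 genes and Tlr4 were higher in PI, by 5.28-fold for Tlr2, 8.22-fold for Cd14, 2.15-fold for Myd88 and 1.58-fold for Tlr4. The endosomal receptors Tlr3 and Tlr7 were not called in either genotype. Thus 3 of 6 members were called in WT, where 5.20% of 14489 genes were called as higher and 5.40% as lower, and 4 of 6 in KO, where 5.11% of 14338 genes were called as higher and 4.94% as lower. No member was called as lower. At an unadjusted p under 0.05, 0 members were lower as well, beside 12.1% (WT) and 12.7% (KO) of all genes. By limma on the deposited values 0 members were lower, beside 21.7% (WT) and 23.4% (KO) of all genes. Tlr2 and Cd14 had no row in the table of the genotypes in CL, so they were listed through PI, the group in which they are high. With 1 CPM added before the log, the log2 fold changes of Tlr2 and Cd14 were 1.69 and 2.34 in WT and 1.45 and 2.28 in KO, so the folds above depend on how the low CL values are treated.

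**Figure D1:**
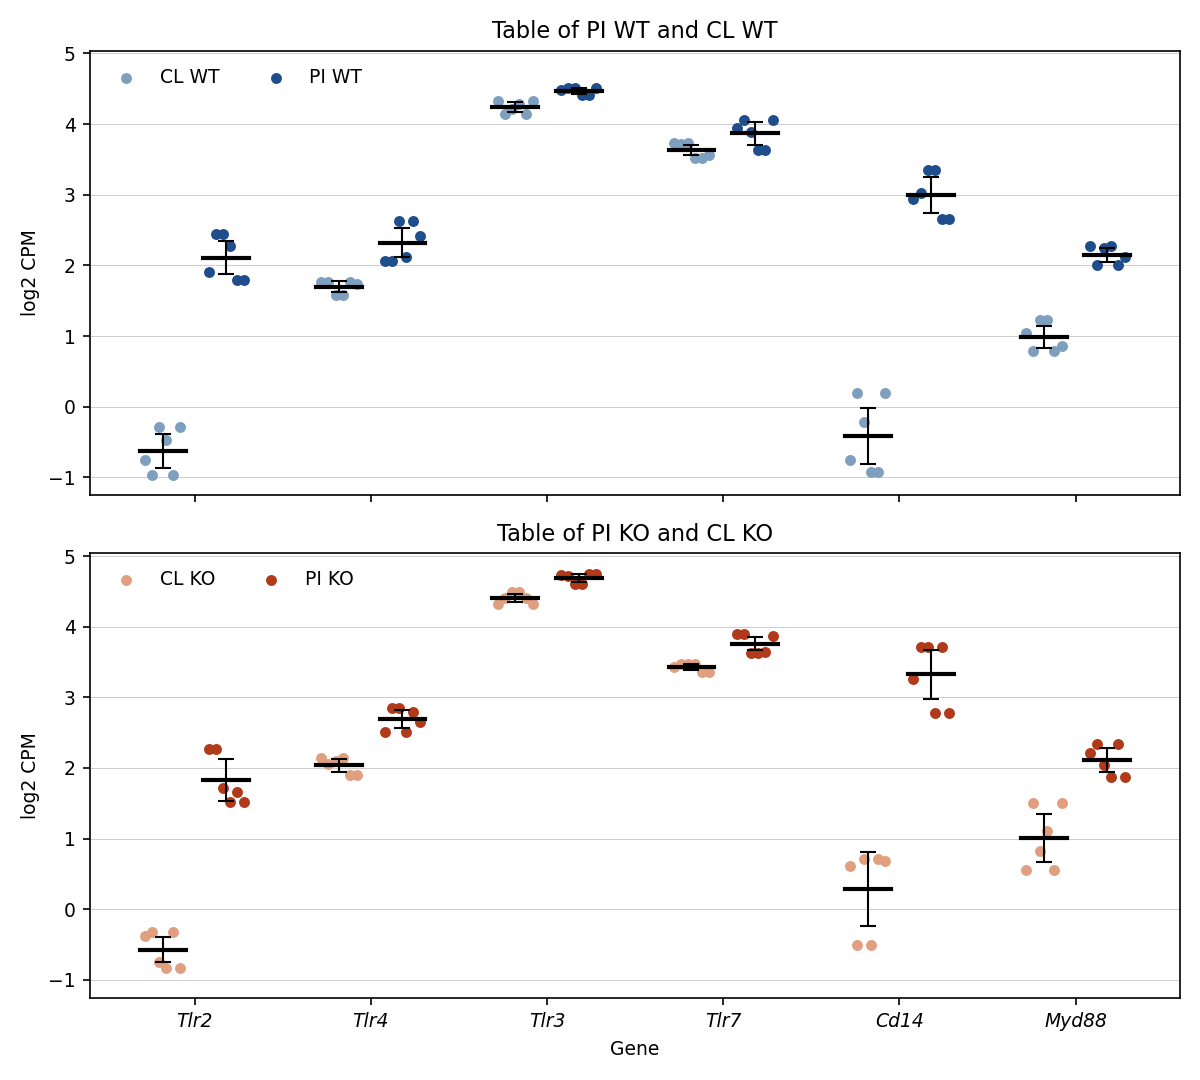
Deposited log2 CPM of the 6 members (y axis) in each of 6 libraries per group, with PI WT and CL WT in one panel and PI KO and CL KO in the other; points are libraries, bars are the trimmed mean ± SE. Tlr2 and Cd14 in PI lie clear of CL in both panels, whereas Tlr7 values of PI WT and CL WT overlap.

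Tlr2, the lipoprotein receptor, had recoverable values of 0.487 to 0.857 CPM in CL WT, with a median of 0.653 CPM. In PI WT it ran from 3.39 to 5.67 CPM with a median of 4.26 CPM. Every recoverable PI value was above every CL value, and libraries 5 and 6 of PI WT formed the lowest pair while 2 and 3 formed the highest. The log2 fold change was 2.73 ± 0.34 (SE, n = 6 libraries per group; 95% interval 2.0 to 3.46; limma-moderated adjusted p = 0.000337).

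Tlr2 in CL KO ran from 0.548 to 0.812 CPM around a median of 0.678 CPM, and in PI KO from 2.79 to 5.49 CPM around 3.23 CPM. The groups again did not overlap; libraries 1 and 2 were the highest pair of PI KO, and 4 and 6 the lowest. The log2 fold change was 2.40 ± 0.36 (SE, n = 6 per group; 95% interval 1.62 to 3.19; limma-moderated adjusted p = 0.00145). The median of CL WT stands for 3.81 to 5.37 reads at the depths of its libraries and that of CL KO for 2.54 to 6.97 reads. The CL level of Tlr2, and with it the size of the fold change, therefore rests on few reads per library.

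Tlr4, the lipopolysaccharide receptor, was at 2.88 to 3.40 CPM in CL WT (median 3.36) and at 4.11 to 6.49 CPM in PI WT (median 4.83). In CL KO it was at 3.59 to 4.46 CPM (median 4.22) and in PI KO at 5.49 to 7.31 CPM (median 6.62). PI lay above CL without overlap in both genotypes. The log2 fold change was 0.62 ± 0.21 in WT (95% interval 0.17 to 1.08; adjusted p = 0.0805 by the limma-moderated test) and 0.66 ± 0.18 in KO (0.28 to 1.04; adjusted p = 0.0332). The call in KO lay near the threshold. Leaving out 1 library at a time ended it in 9 of 12 cases, with adjusted p from 0.0204 to 0.0850 by the same test. Over these 12 cases the log2 fold change stayed between 0.59 and 0.74. The call was lost without PI KO replicate 2, 3, 5 or 6 and without CL KO replicate 2, 3, 4, 5 or 6.

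Cd14, the co-receptor of TLR4 and TLR2, had the largest fold change of the set. It was at 0.505 to 1.25 CPM in CL WT (median 0.712) and at 5.93 to 11.0 CPM in PI WT (median 7.89). No recoverable value of PI WT reached down to CL WT; replicates 3 and 4 were the highest pair and 5 and 6 the lowest. The log2 fold change was 3.41 ± 0.38 (SE, n = 6 per group; 95% interval 2.59 to 4.23; limma-moderated adjusted p = 0.000163).

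In KO animals Cd14 was at 0.544 to 1.65 CPM in CL (median 1.57) and at 6.12 to 13.1 CPM in PI (median 11.2). PI lay above CL throughout, and within PI KO replicates 4 and 6 were the lowest pair, as they were for Tlr2. The log2 fold change was 3.04 ± 0.46 (SE, n = 6 per group; 95% interval 2.04 to 4.04; limma-moderated adjusted p = 0.00152). The Cd14 median of CL WT stands for 4.15 to 5.85 reads per library, and that of PI WT for 48.8 to 78.0 reads.

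Myd88, the adaptor shared by most Toll-like receptors, was at 1.70 to 2.45 CPM in CL WT (median 1.93) and at 3.89 to 4.85 CPM in PI WT (median 4.53). The groups did not overlap, and the log2 fold change was 1.16 ± 0.22 (95% interval 0.69 to 1.63; limma-moderated adjusted p = 0.00443). In KO it was at 1.38 to 3.09 CPM in CL (median 1.96) and at 3.53 to 5.22 CPM in PI (median 4.37). These groups also stayed apart, with a wider spread in CL KO, and the log2 fold change was 1.11 ± 0.32 (0.41 to 1.80; adjusted p = 0.0464). The KO call was lost in 8 of 12 cases when a library was left out, with adjusted p from 0.0152 to 0.114, namely PI KO replicate 1, 2, 3 or 5 or CL KO replicate 1, 3, 4 or 5. The WT call was kept in every one of its 12 cases.

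Tlr3, the receptor for double-stranded RNA, differed little in size between PI and CL. It was at 17.4 to 20.4 CPM in CL WT (median 19.0) and 20.9 to 22.8 CPM in PI WT (median 22.5). CL KO held 19.7 to 22.8 CPM (median 21.3) and PI KO 23.6 to 27.0 CPM (median 26.4). PI lay above CL without overlap in both genotypes, by a log2 fold change of 0.23 ± 0.09 in WT (95% interval 0.04 to 0.42; limma-moderated adjusted p = 0.131) and 0.29 ± 0.09 in KO (0.08 to 0.49; adjusted p = 0.0769). Neither passed the threshold, although leaving out PI KO replicate 4 gave an adjusted p of 0.0439 in KO.

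Tlr7, the receptor for single-stranded RNA, was at 11.4 to 13.4 CPM in CL WT (median 12.5) and 11.7 to 17.1 CPM in PI WT (median 15.1), and these values overlapped. In KO it was at 10.1 to 11.1 CPM in CL (median 10.9) and 12.3 to 14.9 CPM in PI (median 13.5), without overlap. The log2 fold change was 0.24 ± 0.15 in WT (95% interval −0.08 to 0.56; limma-moderated adjusted p = 0.370) and 0.33 ± 0.12 in KO (0.08 to 0.59; adjusted p = 0.0932). Over the set, recoverable values did not overlap for 5 of 6 members in WT and 6 of 6 in KO, all with PI higher, as was so for 13.2% and 13.4% of all genes.

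Because PI and CL libraries of a genotype share animals, the animal was also entered as a replicate block. This was possible with limma on the deposited values only, where the tied ends understate the spread. All 6 members were then called in both genotypes, beside 45.6% (WT) and 47.1% (KO) of all genes; for those not called above, the blocked adjusted p was 0.00157 for Tlr3, 0.00139 for Tlr4 and 0.00804 for Tlr7 in WT, and 0.00173 for Tlr3 and 0.00182 for Tlr7 in KO. The same test without the block also called all 6 members, with 44.6% and 46.5% of all genes.

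Levels of different genes were compared per kilobase of exon. In CL WT the order of median level was Tlr3 (3.64 CPM per kb), Tlr7 (3.05), Myd88 (0.750), Tlr4 (0.606), Cd14 (0.411) and Tlr2 (0.217). Tlr3 and Tlr7 did not overlap in recoverable values (3.34 to 3.92 against 2.79 to 3.29), while Cd14 (0.292 to 0.723) overlapped Tlr4 (0.519 to 0.613) and Myd88 (0.661 to 0.951). In PI WT, Cd14 stood first at 4.56 CPM per kb, but its range of 3.42 to 6.34 covered that of Tlr3 (4.01 to 4.37) and overlapped that of Tlr7 (2.87 to 4.19). Myd88 (1.76), Tlr2 (1.41) and Tlr4 (0.870) followed; Myd88 at 1.51 to 1.88 and Tlr2 at 1.12 to 1.88 overlapped, as did Tlr2 and Tlr4 at 0.740 to 1.17.

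The KO libraries, read in their own table, gave a similar picture. CL KO ran from Tlr3 (4.08 CPM per kb) and Tlr7 (2.68) to Cd14 (0.905), Myd88 (0.761), Tlr4 (0.759) and Tlr2 (0.225), where Cd14 (0.314 to 0.955), Myd88 (0.535 to 1.20) and Tlr4 (0.646 to 0.802) overlapped. PI KO ran from Cd14 (6.47), Tlr3 (5.08), Tlr7 (3.31) and Myd88 (1.70) to Tlr4 (1.19) and Tlr2 (1.07). The range of Cd14 in PI KO (3.53 to 7.58) covered that of Tlr3 (4.54 to 5.19), and Tlr2 (0.924 to 1.82) overlapped Tlr4 (0.989 to 1.31). In each group the endosomal receptors were thus above the surface receptors per unit of length, and Cd14 was the member whose place in the order differed most between CL and PI.

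Genotype was compared within each side. In PI, none of the 6 members was called between KO and WT, where 0.0208% of 14452 genes were called. By the limma-moderated test 1 of them, Tlr3, had an unadjusted p under 0.05, and limma on the deposited values called 2, Tlr3 and Tlr4; of all genes, 5.75% and 16.5% passed these tests. Cd14 was at 6.26 to 13.4 CPM in PI KO (median 11.5) and 6.04 to 11.1 CPM in PI WT (median 8.05), and Tlr2 at 2.85 to 5.60 CPM (median 3.30) and 3.45 to 5.79 CPM (median 4.32). The groups overlapped for both genes, and the log2 differences of KO from WT were 0.34 ± 0.32 for Cd14 (95% interval −0.35 to 1.03; limma-moderated adjusted p = 0.910) and −0.28 ± 0.30 for Tlr2 (−0.94 to 0.38; adjusted p = 0.918). These intervals include a Cd14 level higher in KO by 1.03 and a Tlr2 level lower by up to −0.94 on the log2 scale, so equal levels are not shown.

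Tlr3 was the member whose recoverable values did not overlap between PI KO (24.2 to 27.7 CPM, median 27.0) and PI WT (21.3 to 23.2 CPM, median 23.0), as was so for 8.97% of all genes. Its log2 difference was 0.23 ± 0.09 (95% interval 0.04 to 0.42), with an unadjusted p of 0.0234 and a limma-moderated adjusted p of 0.854. Tlr4 differed by 0.38 ± 0.21 (−0.08 to 0.84; adjusted p = 0.854), Tlr7 by −0.11 ± 0.16 (−0.44 to 0.23; adjusted p = 0.942) and Myd88 by −0.03 ± 0.20 (−0.47 to 0.40; adjusted p = 0.990), each with overlapping groups.

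In CL, 0 of the 4 members listed were called between KO and WT, where 0.0279% of 14323 genes were called. At an unadjusted p under 0.05 there were also 0 of 4, whereas limma on the deposited values called 3 (Tlr3, Tlr4 and Tlr7), as it did 16.1% of all genes. Tlr4 was at 3.52 to 4.37 CPM in CL KO (median 4.14) and 2.81 to 3.33 CPM in CL WT (median 3.29), and Tlr7 at 9.90 to 10.9 CPM (median 10.7) and 11.1 to 13.1 CPM (median 12.2). KO lay above WT for Tlr4 and below it for Tlr7 without overlap, as for 8.67% of all genes. The log2 differences were 0.34 ± 0.18 for Tlr4 (95% interval −0.04 to 0.73; limma-moderated adjusted p = 0.878) and −0.20 ± 0.11 for Tlr7 (−0.44 to 0.03; adjusted p = 0.878). For Tlr3 the difference was 0.17 ± 0.10 (−0.03 to 0.38; adjusted p = 0.882) and for Myd88 0.02 ± 0.34 (−0.72 to 0.76; adjusted p = 0.997), with overlap.

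Whether the difference of PI from CL itself differed by genotype was tested as an interaction over 14211 genes present in both tables, and 0% of them were called. Of the members, 0 had an unadjusted p under 0.05, beside 4.55% of all genes. Limma on the deposited values called 0 members, beside 13.7% of all genes. As KO change minus WT change on the log2 scale, Cd14 gave −0.37 ± 0.65 (95% interval −1.74 to 1.00) and Tlr2 −0.33 ± 0.49 (−1.36 to 0.69). Tlr4 gave 0.03 ± 0.27 (−0.54 to 0.61), Tlr7 0.10 ± 0.19 (−0.31 to 0.50), Tlr3 0.06 ± 0.13 (−0.21 to 0.32) and Myd88 −0.05 ± 0.40 (−0.89 to 0.78). The limma-moderated adjusted p ran from 0.992 to 0.998, and the Tlr4 call in KO but not in WT was thus not shown to be a difference between the genotypes.

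The other genes of the pathway were taken from lists of 87 genes by role, members included. Here and below, such a gene or a marker is said to rise or fall only where it was called. Without the members, 12 of the 49 listed genes rose in PI of WT and 0 fell, beside 5.20% and 5.40% of all genes. Called or not, 40 lay above 0 and 9 below, with a median log2 fold change of 0.17 against 0.01 for all genes. In KO, 11 of 51 rose and 0 fell, beside 5.11% and 4.94% of all genes. There 40 lay above 0 and 11 below, with a median of 0.16 against −0.00068. These counts hold genes listed through PI, where they are high: 4 of the 12 (Nfkb2, Zfp36, Icam1 and Ccl2) and 4 of the 11 (Cd180, Zfp36, Icam1 and Il1a) had no row in the table of the genotypes in CL. The counts therefore describe the rows present and give no support for a direction of the pathway. At an unadjusted p under 0.05, 2 were lower in WT and 0 in KO (12.1% and 12.7% of all genes), and limma on the deposited values called 3 and 4 as lower, beside 21.7% and 23.4% of all genes. Between genotypes, 0 of 62 listed in PI and 0 of 45 listed in CL were called by the limma-moderated test. At an unadjusted p under 0.05, the PI libraries had 7 genes higher and 0 lower in KO, and the CL libraries 1 higher and 1 lower, beside 5.75% and 5.73% of all genes in either direction. Limma on the deposited values called 11 as higher and 4 as lower in PI, and 4 and 2 in CL, beside 16.5% and 16.1% of all genes.

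Among receptors, Tlr13, an endosomal sensor of bacterial ribosomal RNA, rose from 3.75 to 4.43 CPM in CL WT to 8.47 to 11.9 CPM in PI WT, by 1.24 ± 0.16 on the log2 scale (limma-moderated adjusted p = 0.000496). In KO it rose by 1.11 ± 0.17 (adjusted p = 0.00179), so of the 3 endosomal receptors listed it was the one called in either genotype. Tlr1, the partner of TLR2, and Ly96, which encodes MD-2, the partner of TLR4, had rows only in the table of PI KO with PI WT. There Tlr1 was at 3.40 to 4.19 CPM against 3.03 to 4.16 CPM and Ly96 at 1.09 to 1.90 CPM against 0.772 to 1.61 CPM, and neither was called.

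Among co-receptors beside Cd14, Ly86, which encodes MD-1, the partner of CD180, rose by 1.13 ± 0.22 in WT (limma-moderated adjusted p = 0.00545) and by 1.59 ± 0.23 in KO (adjusted p = 0.000889). Cd180, a Toll-like homologue, was listed for KO, where it rose from 0.450 to 0.678 CPM in CL to 2.42 to 5.38 CPM in PI (log2 fold change 2.66 ± 0.41, adjusted p = 0.00153). In the CL KO libraries 3 reads stand for 0.292 to 0.801 CPM, so the size of this fold change rests on few reads. Lbp was listed only for PI KO with PI WT, and Cd36 there and for PI with CL of KO. All 10 co-receptor and trafficking genes, Cd14 included, were listed for PI KO with PI WT, and 0 were called, beside 0.0208% of all genes. Their log2 differences of KO from WT ran from −0.05 to 1.26, with a median of 0.32. Of the adaptors, Tirap, which bridges TLR2 and TLR4 to MyD88, rose by 0.82 ± 0.22 in WT (adjusted p = 0.0319), and in KO its groups overlapped with a log2 fold change of 0.53 ± 0.27 (adjusted p = 0.251). Ticam1, which encodes the TLR3 adaptor TRIF, was not called, with log2 fold changes of 0.63 in WT and 0.42 in KO.

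Downstream, the kinase gene Ripk1 rose by 0.64 ± 0.13 in WT (limma-moderated adjusted p = 0.00903) and by 0.54 ± 0.15 in KO (adjusted p = 0.0374). Nfkb2, a subunit of NF-kappaB, rose by 1.16 ± 0.27 in WT (adjusted p = 0.0165), while in KO the groups overlapped at 1.07 ± 0.45 (adjusted p = 0.157). The interaction was −0.08 ± 0.54 for Nfkb2 and −0.29 ± 0.35 for Tirap (limma-moderated adjusted p = 0.998 and 0.992). Their calls in WT alone were thus not shown to be a difference between the genotypes. Zfp36, which encodes a protein that shortens the life of cytokine mRNA, rose by 1.36 ± 0.30 in WT and 1.50 ± 0.30 in KO (adjusted p = 0.0123 and 0.00847), the 1 inhibitor called of 8 listed.

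Of the proteins known as endogenous ligands, Tnc (tenascin C), Dcn (decorin) and Hspd1 (a mitochondrial chaperone) rose in both genotypes, 3 of 7 listed. Of all genes, 5.20% (WT) and 5.11% (KO) were called as higher. Tnc rose by 1.71 ± 0.35 in WT and 1.82 ± 0.34 in KO, and Dcn by 1.32 ± 0.18 and 1.11 ± 0.21. Among NF-kappaB target genes, 3 of 15 were listed in each table of PI against CL and rose, of which 2 in each had no row in the table of the genotypes in CL and were thus listed through PI. These 3 were Ptgs2 (0.49 ± 0.12 in WT and 0.69 ± 0.13 in KO), Icam1 (1.83 ± 0.42 and 1.44 ± 0.42) together with Ccl2 in the WT table and Il1a in the KO table. Ccl2, a chemokine that attracts monocytes, was at 3.11 to 4.45 CPM in PI WT and at 0.145 to 0.253 CPM in CL WT, below the level of 3 reads, and Il1a, a cytokine, at 3.01 to 4.72 CPM in PI KO and 0.156 to 0.548 CPM in CL KO.

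**Figure D2:**
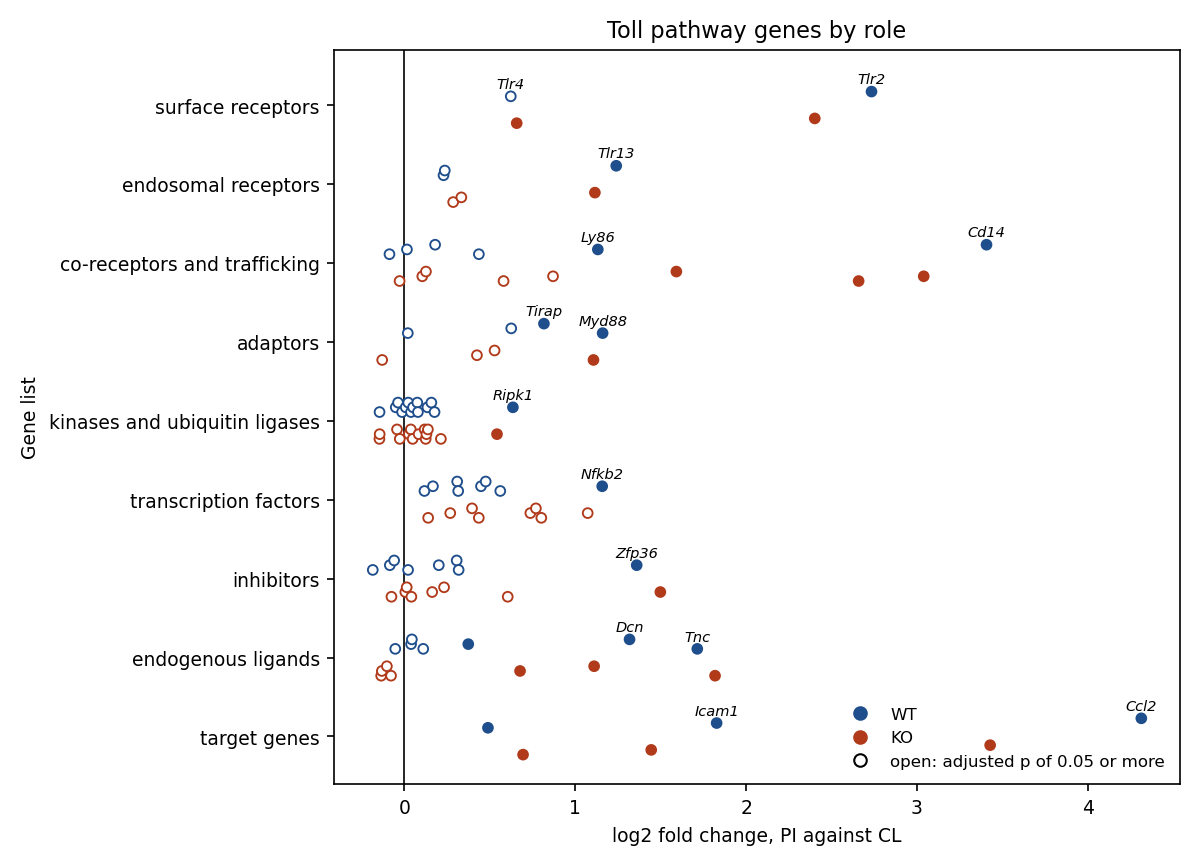
Log2 fold change of PI against CL (x axis) for each listed gene of the Toll pathway, in rows by role, with WT in blue and KO in red; open points were not called. All called genes lie to the right of 0.

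Markers of several cell types moved with the PI and CL comparison, and in whole tissue more cells of a type and more RNA per cell cannot be told apart. Beside the marker counts below, 5.20% of all genes were called as higher and 5.40% as lower in WT, and 5.11% and 4.94% in KO. All 16 microglia markers were listed. In WT, 7 of them rose, among them Fcrls (1.79 ± 0.21), Itgam (1.08 ± 0.11) and C1qb (0.87 ± 0.10), and 3 fell, P2ry12 (by 0.82 on the log2 scale), Siglech and Gpr34, with a median over the list of 0.36. In KO, 7 rose and 1, P2ry12, fell, with a median of 0.32. Their summed level was 265 to 305 CPM in PI WT against 230 to 246 CPM in CL WT, and 299 to 361 CPM in PI KO against 246 to 273 CPM in CL KO. These sums and those below were taken from the deposited values, whose tied ends understate the spread, so the ranges are too narrow.

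Of 6 markers of macrophages at the borders of the brain, 4 were listed and 3 of these (Mrc1, Lyve1 and F13a1) rose in both genotypes. Of all genes, 5.20% (WT) and 5.11% (KO) were called as higher. Lyve1 had no row for the genotypes in CL, so it was listed through PI, the group in which it is high. The 4 markers summed to 21.6 to 28.1 CPM in PI WT against 14.2 to 16.2 CPM in CL WT, and to 23.1 to 29.7 CPM in PI KO against 14.9 to 17.2 CPM in CL KO. Of 15 markers of neutrophils and monocytes, 0 were listed in the tables of PI with CL. In that of PI KO with PI WT 2 were listed, S100a8 and S100a9, which also count among the Toll ligands, with a sum of 3.39 to 9.32 CPM in PI KO and 2.20 to 4.12 CPM in PI WT, and neither was called. The summed microglia markers there were 307 to 370 CPM in PI KO and 270 to 311 CPM in PI WT. In CL they were 241 to 268 CPM in KO and 225 to 240 CPM in WT. Of the 16 microglia markers, 0 were called between KO and WT in PI and 0 in CL, beside 0.0208% and 0.0279% of all genes. Called or not, 14 lay above 0 and 2 below in PI, with a median log2 difference of KO from WT of 0.25. In CL, 15 lay above 0 and 1 below, with a median of 0.19, so equal levels of these markers are not shown. The summed astrocyte and neuron markers lay lower in PI in both genotypes, and the summed oligodendrocyte markers in WT. The 9 astrocyte markers, of cells also known for TLR3, summed to 6646 to 7048 CPM in PI WT against 7634 to 8039 CPM in CL WT, and to 6450 to 7143 CPM in PI KO against 7661 to 8158 CPM in CL KO. Of these 9, 3 fell and 1 rose in WT, and 1 fell and 1 rose in KO. The 9 neuron markers summed to 7292 to 8027 CPM against 8297 to 8874 CPM in WT and 7077 to 7821 CPM against 8194 to 8581 CPM in KO, and 2 of them fell in each genotype while 1 rose in KO. The 6 oligodendrocyte markers summed to 1429 to 2039 CPM in PI WT against 2080 to 2272 CPM in CL WT, and in KO PI (1590 to 1806 CPM) and CL (1663 to 2254 CPM) overlapped. The sums of the 10 endothelial markers overlapped in both genotypes. The part of these cell markers in the values of Tlr2, Cd14, Myd88, Tlr3 and Tlr4 was not tested.

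**Figure D3:**
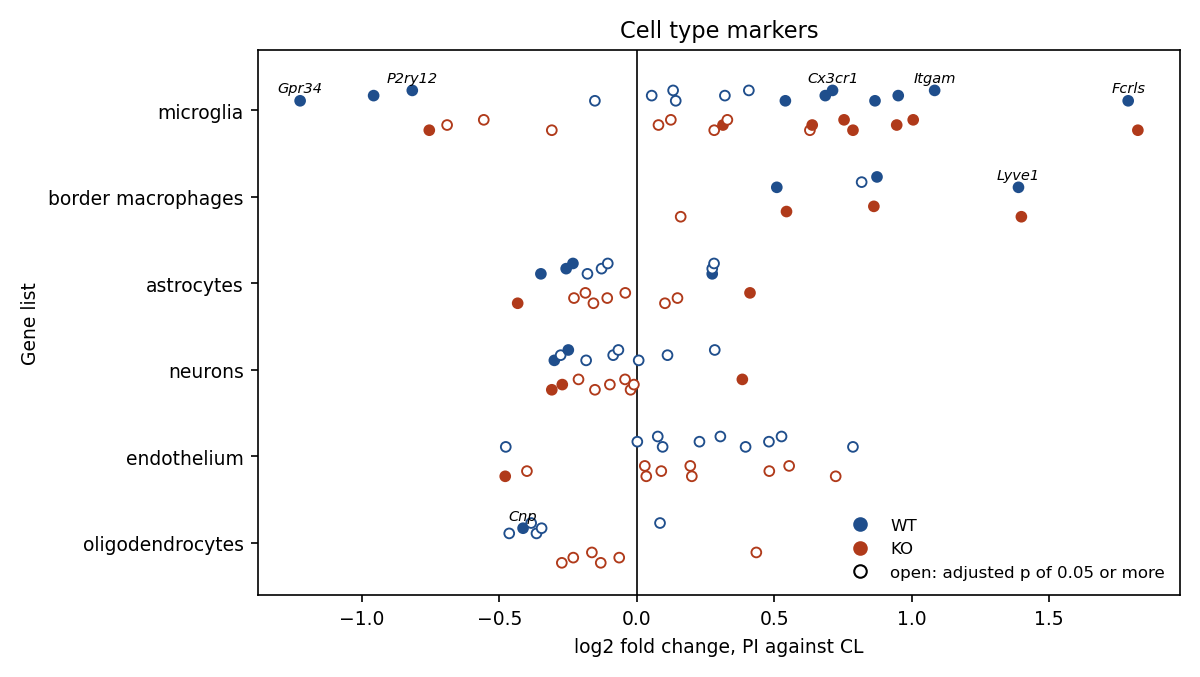
Log2 fold change of PI against CL (x axis) for markers of 6 cell types, in rows, with WT in blue and KO in red; open points were not called. Microglia markers lie on both sides of 0, with P2ry12 low and Fcrls high in both genotypes.

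Genes were ranked for each member by the mean of Pearson's r in the WT table and in the KO table, each over 12 libraries. This is a description, since the points share libraries and the step between PI and CL. The deposited values were used, whose tied ends understate the spread within groups, so r can be too high. For Tlr2 the genes most like it included Ggta1 (0.990) and Slc14a1 (0.985). For Cd14 they were Gm49339 (0.979), Stat3 (0.977) and the microglia marker C1qb (0.972), and for Myd88 Gadd45g (0.954), Gadd45a (0.948) and Csf1 (0.947). Tlr3 ran most like Galnt15 (0.945), Trim30d (0.940) and Sbno2 (0.930), and Tlr4 like Tmed8 (0.936), Dach2 (0.935) and Gnl3 (0.933). Tlr7, with the smallest difference between PI and CL relative to its error in WT, had the lowest values, for Eif2b3 (0.873), Lhfpl3 (0.864) and Insig1 (0.852).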

How the data were processed

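The members and gene lists were chosen with earlier results of these data known. Ribosome-depleted total RNA of 24 cortex libraries was extracted with TRIzol and made into CORALL libraries from 600 ng, per the labels' protocols. The authors deposited log2 CPM values in 4 tables, 1 per pair of groups, per the file headers. The submitters' processing notes name the genome build mm10; the aligner, the counting method and the scaling are not given in the sources used here. Samples were grouped by their titles, and 0 columns of values were unused. Each table was scaled on its own (a library's median shift from 1 of its tables to the other was 0.0256 to 0.0364 log2), so tests stay within a table.

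The deposited log2 values of each gene and group are drawn in to the quartiles, which understates the spread. A trimmed-mean test on the 4 recoverable values, with the Winsorized sum of squares and 6 residual degrees of freedom for 2 groups or 12 for 4, was moderated with limma 3.58.1 (R 4.3.3, trend, two-sided) and checked on simulated data, where its share of false calls lay above the nominal level, so that calls near the threshold are the least certain. Between 76.1% and 90.1% of low values were whole multiples of 1 read within 0.03 read, where chance gives 6%, which gave the depth. Intervals cover the spread between libraries. PI and CL libraries of the same number and genotype are from 1 animal by the labels, and their deviations from the group means correlated at −0.14 to 0.33 in WT and −0.0093 to 0.17 in KO. Numbers of WT and KO name different animals. All 6 members were named, with called pathway genes, markers and, for each member, the 3 most alike genes, of which 1 is not reported here. Symbols were looked up in GENCODE M21, and promoters in RefSeq. Alternatives were limma on the deposited values with and without the block, a pseudocount of 1 CPM, a minimum mean of 1 log2 CPM, centring on the median gene, no trend, and each library left out. Sequence and position of Cd14 are not reported here.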

Additional observations from a re-analysis of the deposited data

How the results depend on the processing

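The calls of Tlr2 and Cd14 in both genotypes and of Myd88 in WT kept their direction and side of the threshold under every alternative that could be run for them; Tlr2 was not tested under the minimum mean of 1 log2 CPM. Limma on the deposited values called 6, 6, 2 and 3 members (PI with CL in WT and in KO, KO with WT in PI and in CL), against 3, 4, 0 and 0, and with the animal or number as replicate block 6, 6, 2 and 2. Over all genes it called 6459, 6666, 2388, 2311 and, for the interaction, 1940, and with the block 6614, 6759, 1800, 1868 and 2216, against 1537, 1440, 3, 4 and 0, from values whose tied ends understate the spread. Without the trend, 1015 and 739 genes were called in WT and KO, and Myd88 in KO lost its call (adjusted p = 0.0950). Leaving out 1 library gave 2 to 5 members called in PI with CL of KO, 900 to 1602 genes there and 3 to 7 genes in KO with WT of CL. The members fell to 2 without PI KO replicate 2, 3 or 5 or CL KO replicate 3, 4 or 5, and the genes to 922 without PI KO replicate 2 and 900 without CL KO replicate 5. Uncalled values that changed sign when 1 library was left out ranged from −0.19 to 0.20 (Myd88, KO with WT in CL), −0.12 to 0.065 (Myd88, KO with WT in PI), and in the interaction from −0.24 to 0.15 (Myd88), −0.059 to 0.16 (Tlr4) and −0.0093 to 0.17 (Tlr7). The causes of these shifts were not tested. A fit with 1 library left out also rests on fewer libraries. WT and KO libraries share only a number, and 0 of 6 correlated best with their own number in either side. Few reads limit the CL levels of Tlr2 and Cd14.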
